A study of Mus musculus with 14 samples.

Results

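The receptors through which germinal centre B cells receive IL-4, IL-21 and IL-10, their Janus kinases and the STAT factors below them were followed in mice with 0, 1 or 2 floxed alleles of Crebbp. The set held 10 genes: the receptor chains Il4ra, Il21r, Il2rg and Il10ra, the kinases Jak1 and Jak3, the factors Stat3, Stat6 and Stat5a, and the inhibitor Socs3. The probe sets followed were those annotated to 1 of these genes alone, which gave 22 of the 45037 non-control probe sets and 9 of the 10 genes. No probe set of Il2rg, the common gamma chain, was named to that gene alone, and Il2rg was not analysed here.

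Germinal centre B cells depend on cytokines from T follicular helper cells, chiefly IL-4 and IL-21. Each cytokine joins its receptor chains, the Janus kinases bound to those chains phosphorylate the receptor and a STAT factor, and the STAT dimer enters the nucleus. IL-4 acts mainly through STAT6, IL-21 and IL-10 mainly through STAT3, and suppressors of cytokine signalling such as SOCS3 shut the pathway down. CREBBP is a lysine acetyltransferase and transcriptional coactivator that several STAT factors can recruit.

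RNA was measured on 1 Affymetrix Mouse Genome 430 2.0 array per mouse. Wild-type mice (WT, Crebbp+/+ Cg1-Cre) numbered 4, 1 of them male. Heterozygous mice (HET, Crebbpfl/+ Cg1-Cre) numbered 5, 2 of them male, and knockout mice (KO, Crebbpfl/fl Cg1-Cre) numbered 5, 3 of them male. All 3 groups carried the Cg1-Cre allele, were C57BL/6x129Sv, and 8 to 12 weeks old. They received sheep red blood cells on day 0 and day 5, and spleens were taken on day 12. Spleen cells sorted as B220+CD95+PNA+ were taken from each mouse. Cg1-Cre recombines in B cells once they are activated, so the sorted cells of a KO mouse may include cells in which the alleles were not deleted, and the share of such cells was not measured here.

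On the Crebbp probe set with the largest difference the log2 intensity was 10.29 ± 0.08 (SD, n = 4) in WT, 9.95 ± 0.17 (SD, n = 5) in HET and 9.42 ± 0.10 (SD, n = 5) in KO. Its KO change was -0.86 (SE 0.10, limma adjusted p = 0.00168 over all probe sets). The brightest Crebbp probe set changed by -0.41 (SE 0.10, limma adjusted p = 0.136). The remaining Crebbp probe sets changed by -0.47 (SE 0.10, limma adjusted p = 0.0954) and -0.30 (SE 0.13, limma adjusted p = 0.703). All 9 germinal centre B cell markers with a probe set lay above the median probe set level of 6.43. Their mean level was 12.53 in WT, 12.48 in HET and 12.38 in KO, and the KO and WT arrays did not overlap. Of these 9, Rgs13 fell in KO by 0.62 (SE 0.12, limma adjusted p = 0.018). Of 10 T cell markers 3 lay above that level (Lat, Cd8a and Cd3e), while Cd3d, Cd3g, Cd4, Cd28, Icos, Bcl11b and Trat1 did not, and Lat fell in KO by 0.47 (SE 0.10, limma adjusted p = 0.0254). The mean of the 10 ranged from 5.71 to 5.98 in WT, 5.66 to 6.09 in HET and 5.60 to 6.15 in KO. Of 9 myeloid markers 5 lay above the level, without Csf1r, Itgam, Adgre1 and Cd14. The mean of the 9 ranged from 6.51 to 7.41 in WT, 6.51 to 7.20 in HET and 6.53 to 7.18 in KO. Of the 5, Lyz2, S100a8 and S100a9 varied most between mice of a group. Lyz2 ran from 6.52 to 9.71 in WT, 6.48 to 10.32 in HET and 6.41 to 9.91 in KO. Of 5 plasma cell markers 4 lay above the median probe set level and the mean of the 5 overlapped between groups. Sdc1 rose in KO by 0.81 (SE 0.19, limma adjusted p = 0.0404). The other 3 had negative KO changes and were not called: Irf4 at -0.30 (SE 0.08), Prdm1 at -0.28 (SE 0.16) and Jchain at -0.06 (SE 0.07). Follicular B cell and dendritic cell marker means also overlapped between KO and WT, and 0 of 4 NK cell and 0 of 3 erythroid markers lay above the level. The part of other cells in the results below was not tested, and in bulk samples fewer cells of a type and less RNA per cell cannot be told apart.

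Against WT, the median log2 change of the receptor and JAK-STAT genes was -0.09 in mice with 1 floxed Crebbp allele and -0.21 in mice with 2, and no single member passed the test. Both medians moved when WT 4, the only male WT mouse, was left out of the fit with a sex term. In that fit they were 0.04 in HET, with 3 of 9 changes negative, and -0.07 in KO, with 6 of 9 negative. Among females alone, with no sex term, the KO median was -0.08, with 5 of 9 negative. The readings of WT 1, WT 2 and WT 3 lay above those of all KO mice for Il4ra and Jak1. Apart from females alone, fits without WT 4 kept the sex term although no male WT mouse was left. In them the high values of WT 4 and the lost balance of sex between groups cannot be told apart. In KO against WT with all arrays, 8 of the 9 members had a negative log2 change, with a median of -0.21 against -0.0027 over all 10225 genes tested, of which 51% were negative. The changes ran from -0.37 for Il10ra to 0.04 for Stat5a. With limma and Benjamini-Hochberg adjustment over all tested genes, 0 of 9 members were called at 0.05, where 2.44% of all genes were. At an unadjusted limma p under 0.05 there were 4 members, Jak1, Il21r, Il4ra and Il10ra, all with negative changes, where 13.1% of all genes passed and 6.94% passed with a negative change. In HET against WT, 6 of 9 changes were negative, against 49.3% of all genes. There 0 members were called by limma and 0 had an unadjusted p under 0.05, against 0% called and 2.74% unadjusted over all genes. In KO against HET, 6 of 9 changes were negative, against 52.7% of all genes, with a median of -0.14. There 0 members were called by limma and 3 had an unadjusted p under 0.05 (Jak1, Il4ra and Il21r), against 0.264% and 6.39% of all genes. These comparisons share arrays, so their values are not independent.

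Each gene was represented by its brightest probe set, and all 22 probe sets were tested too. In KO against WT 21 of 22 had a negative change, against 49.5% of all probe sets, and 0 were called by limma, against 0.315%. An unadjusted limma p under 0.05 was reached by 7, all with negative changes, against 6.75% of all probe sets, 3.34% with a negative change. On 5 of the 22, the 3 of Jak1 and 2 of Il4ra, no KO array reached the lowest WT array, against 1.78% of all probe sets. At the gene level this held for Jak1 and Il4ra, 2 of 9 members, against 3.65% of all genes. Probe sets of a gene share its transcript, so these are not separate observations. Of the 22, 5 lay below the median level (1 each of Il4ra, Il10ra, Stat3, Stat5a and Socs3), where values are close to background and compressed.

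**Figure D1:**
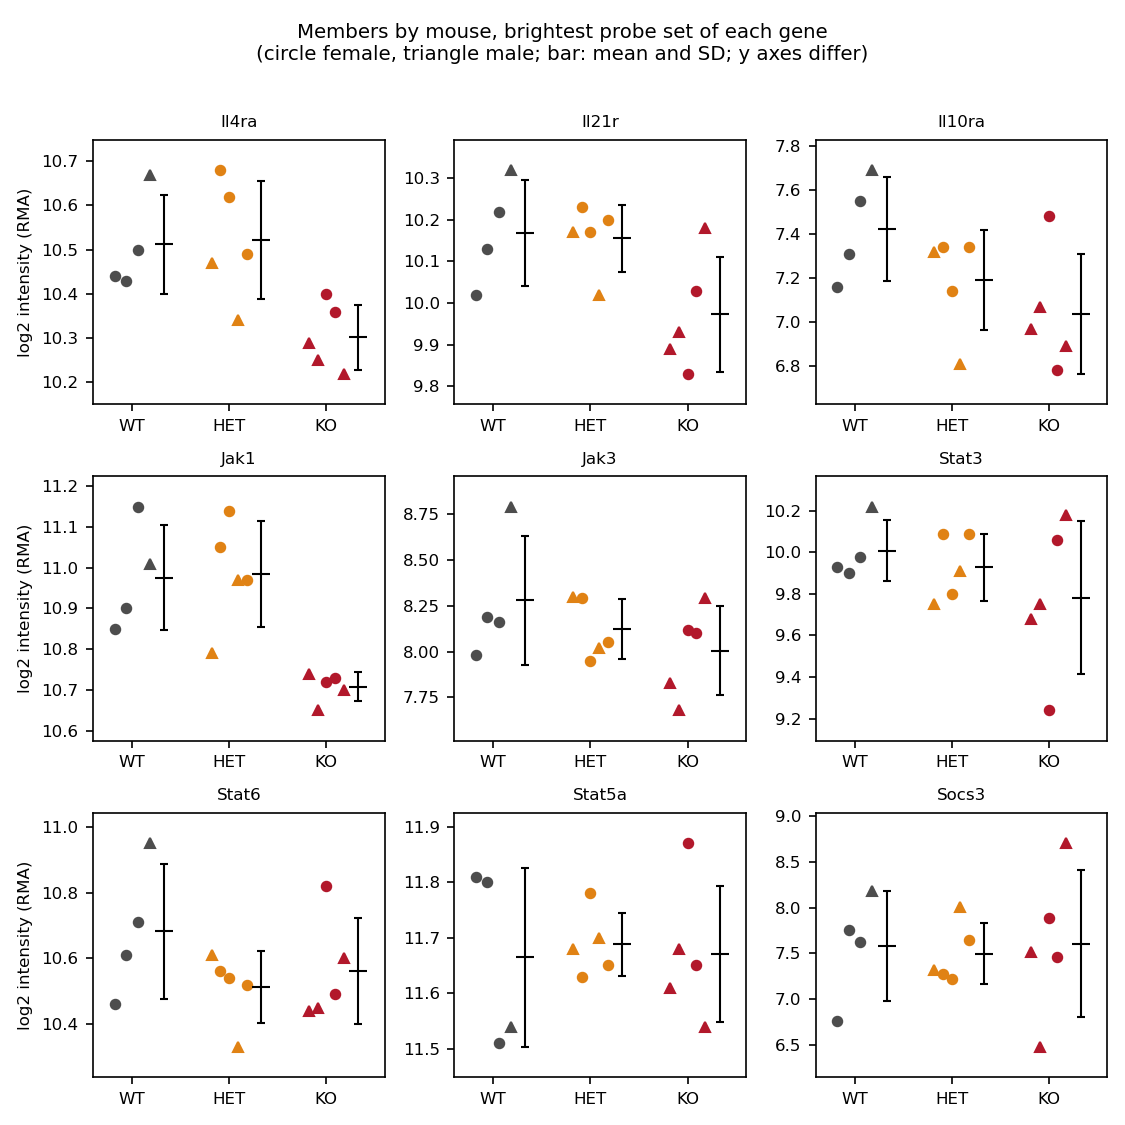
Log2 intensity of the 9 members on their brightest probe set, 1 point per mouse (triangles are males) with the mean and SD of each group (WT n = 4, HET n = 5, KO n = 5). The KO points of Il4ra and Jak1 lie below all WT points, and the groups of the other 7 members overlap.

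Among the receptors, Il4ra encodes the chain that binds IL-4 and also serves the IL-13 receptor. RefSeq (GRCm38.p6) gives its start region on the plus strand at chr7:125552021-125552270, shown because Il4ra is 1 of the 2 members with non-overlapping KO and WT groups. The capitals mark ATGCAAAT, the octamer that B cell POU factors bind, 139 bases before the start.
Il4ra: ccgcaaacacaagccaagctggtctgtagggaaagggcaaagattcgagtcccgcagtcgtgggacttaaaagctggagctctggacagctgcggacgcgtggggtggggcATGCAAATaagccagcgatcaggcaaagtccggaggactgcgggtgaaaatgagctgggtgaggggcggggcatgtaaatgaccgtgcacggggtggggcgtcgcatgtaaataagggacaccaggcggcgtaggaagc
The octamer, searched on both strands, was in 1 of 10 start windows of the members and in 1.74% of the 32851 windows of all genes, each from 250 bases before to 50 bases after a start. It was chosen after the sequences were seen, and a match is a description and not a site.

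On its brightest probe set Il4ra read 10.44, 10.43, 10.50 and 10.67 in the 4 WT mice. The 5 HET mice read 10.47, 10.68, 10.62, 10.34 and 10.49, and the 5 KO mice read 10.29, 10.25, 10.40, 10.36 and 10.22. The HET values spanned the whole WT range, and all KO values lay under the lowest WT value, with the highest KO mouse close to it. In KO Il4ra differed from WT by -0.19 (SE 0.08, 95% confidence interval -0.36 to -0.01, limma adjusted p = 0.33), which is 87.9% of the WT level. Against HET the change was -0.21 (SE 0.07, interval -0.36 to -0.05, limma adjusted p = 0.492), and HET differed from WT by 0.02 (interval -0.15 to 0.19).

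The next Il4ra probe set read 8.58, 8.68, 8.80 and 8.77 in WT, 8.65, 8.94, 9.00, 8.50 and 8.69 in HET, and 8.29, 8.12, 8.24, 8.55 and 8.54 in KO. Again the KO values were all under the WT values, with 2 KO mice just below them. Its KO change was -0.32 (SE 0.12, limma adjusted p = 0.527 over all probe sets) and its change against HET was -0.38 (SE 0.11, limma adjusted p = 0.704). The third probe set, below the median level, read 6.20 to 6.71 in WT and 6.03 to 6.56 in KO, which overlap. The size of the Il4ra change on the brightest probe set depended on keeping WT 4, the only male WT mouse and the highest WT value, in the fit. Without it the KO change was -0.06, in a fit with a sex term and no male WT mouse. Among females alone, with 2 KO mice, the KO change was -0.08. WT 1, WT 2 and WT 3, at 10.44, 10.43 and 10.50, still lay above all KO mice on that probe set. The change against HET was -0.19 without WT 4 and -0.22 among females.

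Il21r encodes the chain that binds IL-21 and pairs with the common gamma chain, and it is the neighbouring gene of Il4ra in RefSeq. Its 1 probe set read 10.02, 10.13, 10.22 and 10.32 in WT, 10.17, 10.23, 10.17, 10.02 and 10.20 in HET, and 9.89, 9.93, 9.83, 10.03 and 10.18 in KO. KO 1, KO 2 and KO 3 lay below every WT and HET mouse, while KO 4 and KO 5 lay inside their range. The KO change was -0.21 (SE 0.09, interval -0.39 to -0.02, limma adjusted p = 0.319), 86.6% of WT, and the HET change was -0.02 (interval -0.20 to 0.16). Without WT 4 the KO change was -0.14, and without KO 3 and WT 4 together it was -0.05.

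Il10ra encodes the ligand-binding chain of the IL-10 receptor and lay close to the median probe set level on its brightest probe set, 7.20 against 6.43, where changes are compressed. Its brightest probe set read 7.16, 7.31, 7.55 and 7.69 in WT, 7.32, 7.34, 7.14, 6.81 and 7.34 in HET, and 6.97, 7.07, 7.48, 6.78 and 6.89 in KO. All KO mice but KO 3 lay below all WT mice, and KO 3 lay among them. The KO change of -0.37 (SE 0.16, interval -0.72 to -0.02, limma adjusted p = 0.344) was the largest of the members in size, 77.4% of WT, and the HET change was -0.23 (SE 0.16, interval -0.56 to 0.11). Its value moved with single arrays, to -0.53 without KO 3 and to -0.19 without WT 4. The other Il10ra probe sets changed by -0.14 (SE 0.13) and -0.17 (SE 0.10), with overlapping groups.

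Among the kinases, Jak1 is bound to the IL-4, IL-21 and IL-10 receptors alike and had the smallest p of the members in both comparisons with KO. The RefSeq sequence before its start, on the minus strand at chr4:101265283-101265473 (GRCm38.p6), is shown for that reason. The capitals mark TGACGTCA, the cyclic AMP response element bound by CREB, the factor for which the CREB-binding protein is named. They lie 101 bases before the start that the 300-base window of Jak1 is built on.
Jak1: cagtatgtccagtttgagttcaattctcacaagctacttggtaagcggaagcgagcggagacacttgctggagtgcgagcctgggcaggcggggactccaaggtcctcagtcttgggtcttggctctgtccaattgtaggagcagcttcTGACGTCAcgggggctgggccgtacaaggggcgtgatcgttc
Searched on both strands, TGACGTCA was in 1 of the 10 member windows and in 1.79% of all windows. The shorter TGACG, which the longer motif contains, was in 3 of 10 and in 20.8% of all. No binding was measured here.

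On its brightest probe set Jak1 read 10.85, 10.90, 11.15 and 11.01 in WT. HET mice read 10.79, 11.05, 11.14, 10.97 and 10.97, and KO mice read 10.74, 10.65, 10.72, 10.73 and 10.70. The 5 KO values lay close together, from 10.65 to 10.74, and below every WT and every HET value. WT and HET overlapped, and the lowest HET value, 10.79, lay below the lowest WT value and close to the highest KO value. No other member separated KO from HET on any probe set, and on the other Jak1 probe sets KO and HET overlapped. Over all genes, 0.822% had every KO array below every HET array. The means were 10.98 ± 0.13 (SD, n = 4) in WT, 10.98 ± 0.13 (SD, n = 5) in HET and 10.71 ± 0.04 (SD, n = 5) in KO. Jak1 differed in KO from WT by -0.24 (SE 0.08, interval -0.41 to -0.08, limma adjusted p = 0.144), 84.4% of WT, and the change against HET was -0.26 (SE 0.07, interval -0.42 to -0.11, limma adjusted p = 0.249).

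The other Jak1 probe sets also had all KO mice below all WT mice with the HET mean between those of WT and KO. The first read 10.92, 10.96, 10.99 and 10.96 in WT, 10.83, 10.98, 10.90, 10.80 and 10.74 in HET, and 10.84, 10.73, 10.56, 10.75 and 10.74 in KO. The second read 9.75, 9.83, 9.84 and 9.66 in WT, 9.54, 9.58, 9.43, 9.64 and 9.32 in HET, and 9.65, 9.45, 8.91, 9.58 and 9.22 in KO. On the second, HET lay wholly below WT, which held for 0.444% of all probe sets, and the highest KO and HET values were only just under the lowest WT value. Their KO changes were -0.24 (SE 0.08, limma adjusted p = 0.35) and -0.44 (SE 0.14, limma adjusted p = 0.322), and their HET changes were -0.11 (SE 0.07) and -0.28 (SE 0.13, limma adjusted p = 1).

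The Jak1 change depended less on single arrays than those of the receptors. Without WT 4 it was -0.20, without KO 3 it was -0.23 and among females alone it was -0.24, and with each of the 14 arrays left out in turn it ran from -0.29 to -0.20. The limma adjusted p stayed above the threshold in all these fits. It was 0.104 to 0.375 with 1 array left out, and 0.0556 to 0.501 over the 13 alternatives, females alone among them. As a trend per floxed allele Jak1 changed by -0.13 (SE 0.04, limma adjusted p = 0.162). In the trend 0 of 9 members were called by limma, against 3.04% of all genes, and 4 had an unadjusted p under 0.05, against 14.2%. When each gene was the mean of its probe sets the trend was -0.16 (SE 0.04, limma adjusted p = 0.0361), and with array weights it was -0.06 (SE 0.05, limma adjusted p = 0.671). The first was the only 1 of 26 alternative settings in which the Jak1 trend was called, and the second gave the largest adjusted p of them. With array weights the KO change against WT was -0.14.

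**Figure D2:**
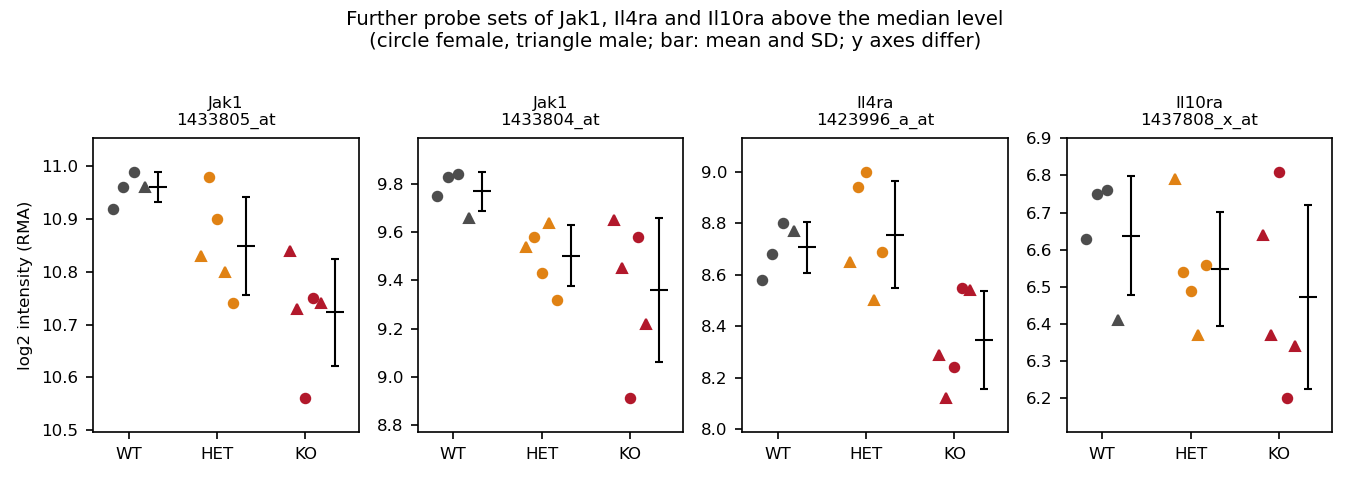
Log2 intensity of the further probe sets of Jak1, Il4ra and Il10ra above the median level, 1 point per mouse (triangles are males) with the mean and SD of each group. Both Jak1 probe sets and that of Il4ra place all 5 KO mice below all 4 WT mice, and the groups of Il10ra overlap.

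Jak3, the kinase bound to the common gamma chain, read 7.98, 8.19, 8.16 and 8.79 in WT, 8.30, 8.29, 7.95, 8.02 and 8.05 in HET, and 7.83, 7.68, 8.12, 8.10 and 8.29 in KO. WT 4 lay far above all other mice, and the values of the other WT mice lay inside the KO range. Jak3 differed in KO by -0.31 (SE 0.16, interval -0.67 to 0.04, limma adjusted p = 0.454), but -0.07 without WT 4 and 0.0012 among females alone. A pair of probe sets annotated to both Jak3 and the overlapping Insl3 are not members by the rule. They had means of 8.53 and 6.94 in WT, 8.49 and 7.01 in HET, and 8.36 and 7.27 in KO, so they went in opposite directions, and signal of the genes cannot be told apart on them.

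Among the factors, Stat3, which carries the IL-21 and IL-10 signal, read 9.93, 9.90, 9.98 and 10.22 in WT, 9.75, 10.09, 9.80, 9.91 and 10.09 in HET, and 9.68, 9.75, 9.24, 10.06 and 10.18 in KO. KO 3 was the lowest of the 14 mice and 2 KO mice were above 3 of the 4 WT mice. Stat3 differed in KO by -0.26 (SE 0.17, interval -0.61 to 0.10, limma adjusted p = 0.587). It was -0.07 without KO 3 and 0.11 without KO 3 and WT 4 together. KO 3 also had the lowest value on the next 2 Stat3 probe sets, 9.15 and 8.39, and its array had the lowest median correlation with the others, 0.979 against 0.984 to 0.990.

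Stat6, the factor of IL-4 signalling, ranged from 10.46 to 10.95 in WT (median 10.66), 10.33 to 10.61 in HET (10.54) and 10.44 to 10.82 in KO (10.49), with WT 4 highest. The KO change was -0.12 (SE 0.11, interval -0.36 to 0.12, limma adjusted p = 0.771) and the HET change was -0.17 (SE 0.11, interval -0.40 to 0.06). Its second probe set changed by -0.11 in KO and -0.12 in HET. Stat5a, a factor of IL-2 family signals, ranged from 11.51 to 11.81 in WT, 11.63 to 11.78 in HET and 11.54 to 11.87 in KO. Its change was 0.04 in both KO (interval -0.14 to 0.21, limma adjusted p = 0.929) and HET (interval -0.13 to 0.21). Stat5a and Stat5b are near-identical neighbours, so probes may be shared between them. Stat5b, which is no member, changed by -0.13 (SE 0.07, limma adjusted p = 0.522).

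Socs3, the inhibitor that STAT3 induces, had the widest spread. The letters TTCNNNGAA, the form that STAT dimers bind, lie inside the 30 bases at chr11:117969501-117969530 in RefSeq (GRCm38.p6), on the minus strand. They are 154 bases before the start that the 300-base window of Socs3 is built on, a start inside the gene as RefSeq annotates it, so the letters lie within the gene and not before it. They are in capitals in the line that follows, which is shown because Socs3 is the member known as a direct STAT target.
Socs3: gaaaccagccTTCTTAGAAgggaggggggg
The form was in 1 of the 10 member windows and in 8.3% of all windows, and the form with a spacer of 4 bases in place of 3, preferred by STAT6, was in 0 of 10 and in 6.95% of all. Both were searched on both strands.

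Socs3 read 6.76, 7.76, 7.62 and 8.18 in WT, 7.32, 7.28, 7.22, 8.01 and 7.65 in HET, and 7.51, 6.48, 7.89, 7.46 and 8.70 in KO. The highest and the lowest of the 14 mice were both KO mice. Its pooled SD within groups was 0.61, at percentile 99.5 of all tested genes, whose median was 0.15, whereas Jak1, at 0.11, lay at percentile 23.0. The KO change was -0.06 (SE 0.38, interval -0.89 to 0.76, limma adjusted p = 0.975), an interval that holds changes of either sign far larger than those of the other members. KO 5 was the highest mouse on all 3 Socs3 probe sets.

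**Figure D3:**
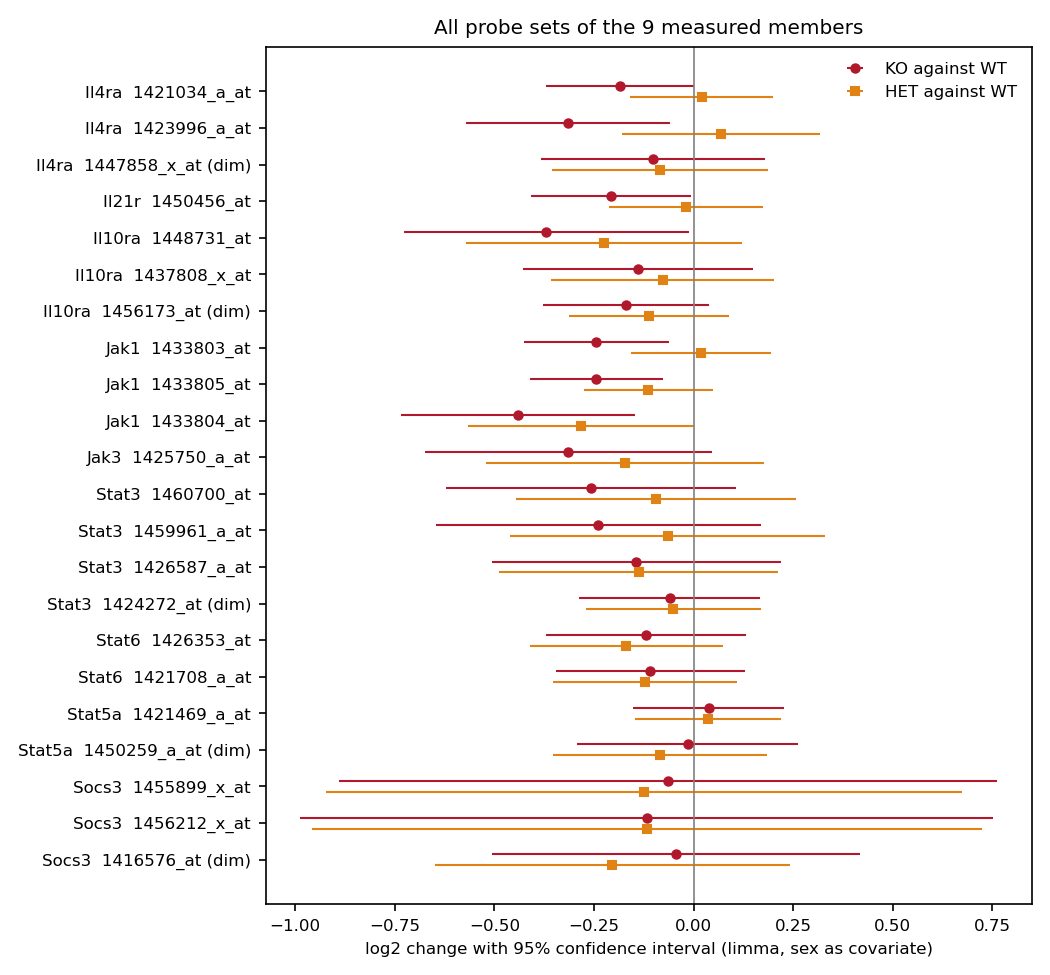
Log2 change of the 22 member probe sets in KO against WT and in HET against WT, from the limma fit with sex as a covariate, with 95% confidence intervals. In KO 21 of 22 points lie below 0, the intervals of 7 exclude 0, and those of Socs3 are the widest.

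The mice differed in where they lay over the members. After centring each gene on its mean, WT 4 was the highest of the 14 mice for 5 of the 9 members (Il21r, Il10ra, Jak3, Stat3 and Stat6) and had the highest mean deviation, 0.32. KO 2 was the lowest for 3 members and had the lowest mean deviation, -0.28, whereas KO 5 had a mean deviation of 0.09. KO 3 was lowest for Il21r and Stat3 and highest for Stat5a. Without KO 3 and WT 4 together the KO changes of Il4ra, Il21r and Jak1 were -0.06, -0.05 and -0.17. Sex entered the fit as a term, and 0 of 9 members were called by limma between males and females, 0 with an unadjusted p under 0.05, against 0.0293% and 6.38% of all genes.

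**Figure D4:**
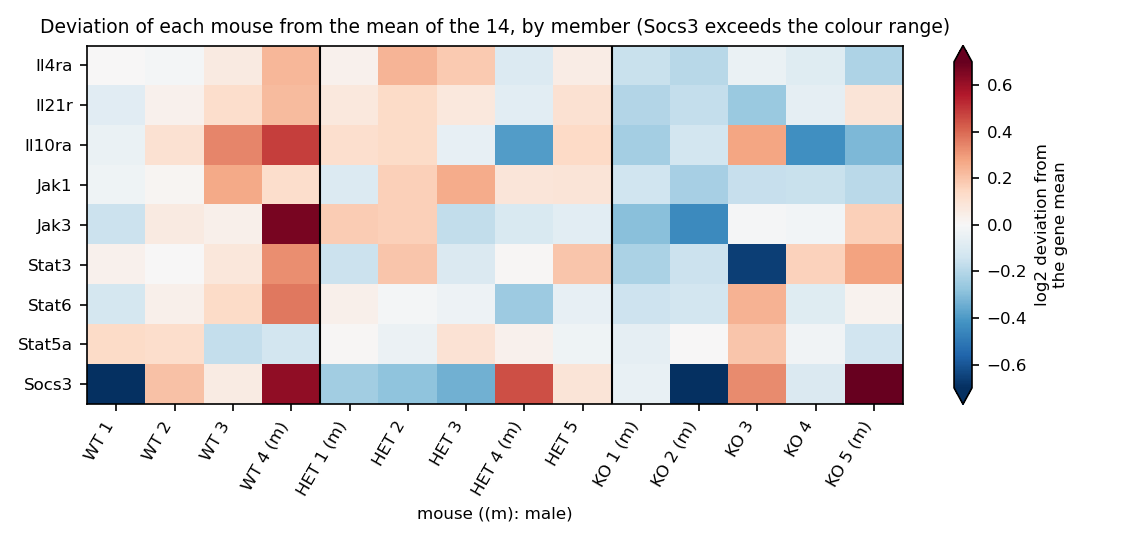
Deviation of each member from its mean over the 14 arrays (log2), 1 row per gene and 1 column per mouse, with some Socs3 values beyond the colour range. WT 4 is high in most rows, and the KO columns are mostly low for Il4ra and Jak1.

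The genes whose pattern over the 14 arrays was most like that of Jak1, by the root mean square difference of centred log2 values, were Rnf167 (0.0837), Ehd4 (0.0878) and Rnf114 (0.0917). The median over all genes was 0.213, and Jak1 itself deviated from its mean by 0.161. In KO against WT, Rnf167 changed by -0.28 (SE 0.07, limma adjusted p = 0.0678) and Ehd4 fell by 0.26 (SE 0.05, limma adjusted p = 0.0214). Rnf114 changed by -0.12 (SE 0.06, limma adjusted p = 0.453). The 3 genes were chosen for likeness to Jak1 over these same arrays, so KO changes near that of Jak1 follow in part from the choice.

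Around the members, 7 lists of pathway genes were read from the same fit. In KO against WT, 1.26% of all tested genes fell and 1.17% rose. An unadjusted limma p under 0.05 was reached by 13.1% of all tested genes, and 51% had a negative change. Of 10 other cytokine receptor chains tested, 1 fell and 0 rose, and 6 changes were negative, with a median of -0.17 (-0.11 without WT 4). An unadjusted limma p under 0.05 was reached by Crlf2, Csf2rb, Il6ra and Il3ra, all with negative changes. Among the 4 positive changes were Lifr at 0.86 (SE 0.52, limma adjusted p = 0.555) and Il6st at 0.32 (SE 0.15, limma adjusted p = 0.384). Crlf2, a chain of the receptor for thymic stromal lymphopoietin, fell in KO. Its level was 9.60 ± 0.10 (SD, n = 4) in WT, 9.36 ± 0.22 (SD, n = 5) in HET and 9.03 ± 0.15 (SD, n = 5) in KO. The change was -0.56 (SE 0.11, limma adjusted p = 0.0193). It was not called without WT 1, without WT 2 or without WT 4, where the largest adjusted p was 0.072, nor among females alone (0.171) or without KO 3 and WT 4 together (0.134). Csf2rb, the common beta chain of the IL-3, IL-5 and GM-CSF receptors, changed by -0.997 (SE 0.29, limma adjusted p = 0.105). Its WT mean was 9.03 ± 0.47 (SD, n = 4) and its KO mean 8.05 ± 0.59 (SD, n = 5). Without KO 1 its limma adjusted p was 0.0185.

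Of the 5 other Janus kinases and STATs tested, 0 were called by limma and 0 had an unadjusted p under 0.05, and 3 changes were negative, with a median of -0.09, which was 0.06 without WT 4. Jak2 changed by 0.0029 and Tyk2, the kinase on the second chain of the IL-10 receptor, by -0.09. Stat4, the factor of IL-12 signalling, changed by 0.29 (SE 0.21, limma adjusted p = 0.647). Of 16 inhibitors of the pathway, 0 were called by limma and 1 had an unadjusted p under 0.05, with a median of 0.03 and 7 negative changes. It was Ptpn1, a tyrosine phosphatase of Janus kinases, at -0.21 (SE 0.09, limma adjusted p = 0.334). Sh2b3, an adaptor that restrains JAK2, changed by -0.14 (SE 0.07). Of 6 adaptors, 0 were called by limma and 2 had an unadjusted p under 0.05, Inpp5d at -0.16 and Grb2 at -0.14.

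Of 13 listed cytokines and cytokine subunits, 12 had a probe set named to 1 gene alone, and Il27 had none. Of the 12, only Ebi3, a subunit shared by IL-27 and IL-35, lay above the median level, and it fell in KO. Its means were 9.30 ± 0.12 (SD, n = 4) in WT, 9.17 ± 0.14 (SD, n = 5) in HET and 8.62 ± 0.21 (SD, n = 5) in KO. The change was -0.61 (SE 0.09, limma adjusted p = 0.00419) against WT and -0.51 (limma adjusted p = 0.0453) against HET. With 1 array left out at a time the call against WT held in 14 of 14 fits, and it was lost without KO 3 and WT 4 together (limma adjusted p = 0.0912). The call against HET was close to the threshold and held in 3 of 14 such fits, those without WT 3, KO 1 or KO 5. Over the 14 its change ran from -0.56 to -0.45 and its limma adjusted p reached 0.169, without HET 1, and among females alone the p was 0.298.

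Of 11 tested genes that IL-4 and STAT6 induce in B cells, Il4ra itself among them, 2 fell and 0 rose in KO, 9 changes were negative and the median was -0.21, the same as for the members. The genes that fell were the MHC class II genes H2-Ab1 at -0.22 (SE 0.05, limma adjusted p = 0.0489) and H2-Eb1 at -0.24 (SE 0.06, limma adjusted p = 0.0488), both just under the threshold. With 1 array left out at a time, each kept its call in 1 of 14 fits, and many other signals set class II expression. Fcer2a, the low-affinity IgE receptor CD23, changed by -0.36 (SE 0.16, limma adjusted p = 0.357) and Pim2 by -0.14. Of 14 tested genes that IL-21 or IL-10 induce through STAT3, 0 were called by limma, and 11 changes were negative, against 51% of all genes. The median was -0.28. An unadjusted limma p under 0.05 was reached by 4, against 13.1% of all genes. Il21r is 1 of those 4, and both Il21r and Socs3 are also members. Without WT 4 the medians of the IL-4 list and of the IL-21 and IL-10 list were -0.20 and -0.18. Junb changed by -0.51 (SE 0.15, limma adjusted p = 0.102) and Irf4 by -0.30 (SE 0.08, limma adjusted p = 0.0842). Bcl6, the factor that maintains the germinal centre B cell state, was 13.02 ± 0.05 (SD, n = 4) in WT and 13.03 ± 0.04 (SD, n = 5) in KO.

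**Figure D5:**
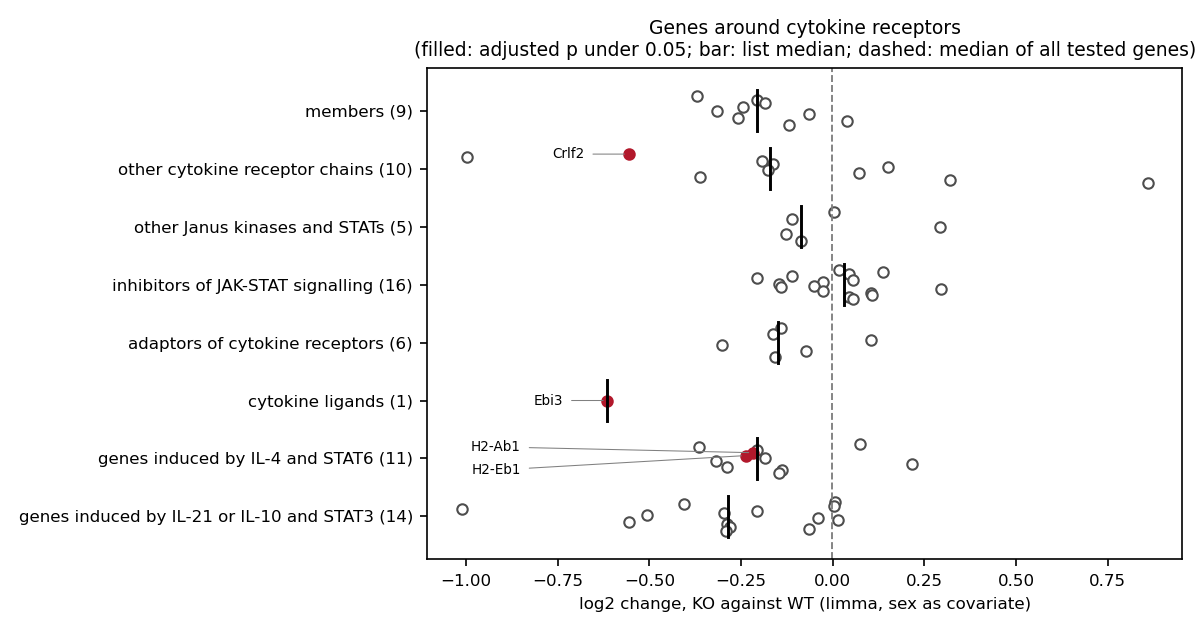
Log2 change in KO against WT (limma, sex as a covariate) of each tested gene in the members and the 7 pathway lists, with the number tested in brackets, a bar at each list's median and filled points where the adjusted p was under 0.05. The median of all genes is dashed, and the 4 filled points are Crlf2, Ebi3, H2-Ab1 and H2-Eb1, all below 0.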

How the data were processed

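Per the labels' protocols, total RNA of the sorted cells of each mouse was amplified (Ovation, NuGEN), labelled with biotin and put on 1 array. The authors deposited log2 intensities made with RMA, per the submitters' processing notes. Its version is not given in the sources used here. RMA gives all arrays 1 distribution, which would hide a shift shared by most genes, and it compresses dim probe sets. No detection calls were used here.

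Of 45101 probe sets 64 were controls, and the platform annotation named 1 gene for 34945 and several for 932. Each of 18193 genes was represented by its brightest probe set over the 14 arrays and tested if its mean exceeded the median of non-control probe sets, 6.43, which left 10225. Groups and sex came from the labels. A model of group plus sex over the 14 arrays was fitted with limma 3.58.1 (lmFit, eBayes; R 4.3.3), with Benjamini-Hochberg adjustment over all tested genes at a threshold of 0.05. The same fit was run on all 45037 probe sets without a filter. For the trend, floxed alleles (0, 1 or 2) entered as a number in place of group. The fits were tested on simulated data. The number of arrays limits the precision. At most 58 values were identical between any 2 arrays.

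The members and gene lists were chosen with earlier results of these data known, so nothing here is independent of those results. The text names every member, the genes called in each list, the 2 genes with the smallest p of each list, the 3 genes most like the member with the smallest p, and Crebbp. Il6ra, Il3ra, Lifr, Il6st, Jak2, Tyk2, Fcer2a, Pim2, Bcl6, Rgs13, Lat, Lyz2, S100a8, S100a9, Sdc1, Prdm1 and Jchain are named outside that rule, chosen after their values were seen. Lists share genes: of the members, Il4ra is also in the list of genes induced by IL-4, and Il21r and Socs3 in that of genes induced by IL-21 or IL-10. Pim1 is in both induced lists, Cish and Socs1 are also among the inhibitors, and Bcl6, Fcer2a, Irf4 and Prdm1 are among those that are also B cell or plasma cell markers. Start windows of 9 members came from RefSeq. Alternatives were the expression filter, the choice of probe set, normalisation, the sex term or females only, the trend and robust options of limma, array weights, the arrays fitted, the replicate block and leaving out arrays.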

Additional observations from a re-analysis of the deposited data

Results flagged for a closer look

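In 3 of 105 groups of 4 or 5 arrays 1 array lay apart from the others by Dixon's gap ratio, which chance gives in about 1 in 20 groups. For Il21r, HET 4 was the lowest HET array at 10.02, with the nearest at 10.17. For Grb2, an adaptor of cytokine receptors, KO 3 was the lowest KO array at 12.90, with the nearest at 13.05. For Irf4, HET 2 was the highest HET array at 11.71, with the nearest at 11.58.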

How the results depend on the processing

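Under 13 alternatives and 14 fits that each left out 1 array, 0 members were called by limma in KO against WT, HET against WT or KO against HET. Between the sexes 0 members were called in the fits that compared them. The fits without the sex term, of females alone and of only the groups compared did not. The median change of the members stayed negative in KO against WT (-0.28 to -0.07) and in KO against HET (-0.20 to -0.10), but ran from -0.15 to 0.04 in HET against WT. The Jak1 trend was called with the mean of the probe sets, which averages its 3 probe sets. The cause of the other shifts was not tested, and fits with fewer arrays have less precision.

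The 249 genes called in KO against WT became 145 with the most variable probe set, 79 in females alone, 98 with only the groups compared and 75 without KO 3 and WT 4 together, and 130 to 259 with 1 array left out. The 27 called in KO against HET became 2 with no filter, 8 with the filter at the 25th percentile, 6 with the most variable probe set, 0 in females, 72 with array weights, 5 with only the groups compared, 13 without KO 3 and WT 4, and 0 to 25 with 1 array left out. The 311 trend genes became 176, 113 and 85 with the most variable probe set, in females and without KO 3 and WT 4, and 164 to 300 with 1 array left out. HET against WT gave 6 calls with array weights. The 4 pathway genes called became 2 with repeated quantile normalisation, 1 in females, 2 with only the groups compared and 0 without KO 3 and WT 4, and 1 to 3 with 1 array left out. H2-Ab1 was called in 6 and H2-Eb1 in 3 of the 13 alternatives.

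Replicate numbers were shared by the groups. The 13 same-numbered pairs had correlations of -0.17 to 0.38 (median 0.14), 9 of them over 0.1, and the 52 pairs of different number had -0.37 to 0.58 (median -0.06), 13 of them over 0.1. Of the 14 mice, 8 correlated best with a mouse of their own number. Since not every same-numbered pair exceeded 0.1, the numbers were not taken as a pairing, and whether they mark one is not known. With the replicate block, 198 genes were called in KO against WT, 16 in KO against HET, 1 in HET against WT and 2 in the pathway lists, and 0 members.

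Signs turned as follows. With the mean of the probe sets, HET against WT gave Jak1 -0.13 and Stat5a -0.024. With the most variable probe set, KO against WT gave Stat5b 0.041, HET against WT gave Jak1 -0.28 and KO against HET gave Socs3 -0.0005. Without the sex term, KO against WT gave Socs3 0.026 and KO against HET gave Stat5a -0.017. In females, KO against WT gave Jak3 0.0012, Stat6 0.065 and Socs3 0.29, HET against WT gave Il21r 0.078, Stat3 0.056, Stat5a -0.020 and Socs3 0.0026 and KO against HET gave Jak3 0.012. With array weights, KO against WT gave Stat5a -0.068, HET against WT gave Il21r 0.064, Stat3 0.0019 and Stat5a -0.043 and KO against HET gave Stat6 -0.064, Stat5a -0.025 and Socs3 -0.076. With only the groups compared, KO against HET gave Stat5a -0.0027. Without KO 3 and WT 4, KO against WT gave Stat3 0.11 and Stat5a -0.075, HET against WT gave Il21r 0.066, Jak3 0.025, Stat3 0.060, Stat5a -0.012 and Socs3 0.029 and KO against HET gave Stat3 0.051, Stat6 -0.0022, Stat5a -0.063 and Socs3 -0.033.

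With 1 array left out in turn, KO against WT ran from -0.22 to 0.037 for Stat6, -0.017 to 0.075 for Stat5a and -0.29 to 0.19 for Socs3. HET against WT ran from -0.018 to 0.13 for Il4ra, -0.065 to 0.043 for Il21r, -0.027 to 0.068 for Jak1, -0.26 to 0.036 for Jak3, -0.022 to 0.076 for Stat5a and -0.37 to 0.081 for Socs3. KO against HET ran from -0.28 to 0.0063 for Stat3, -0.041 to 0.086 for Stat6, -0.048 to 0.027 for Stat5a and -0.17 to 0.35 for Socs3.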
